A study of Danio rerio with 12 samples.

Results

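The genes described here build, cross-link and cut the extracellular matrix. They are the zebrafish genes whose names begin as collagens, laminin chains, matrix metalloproteinases, tissue inhibitors of metalloproteinases (TIMPs) or lysyl oxidases, together with *fn1a*, *fn1b*, *sparc*, *dcn* and *lum*. The rule used gene names and no measured level, though it was set with earlier results of these data known, and it gave 117 members among the 25607 zebrafish genes counted. The names *loxhd1a* and *loxhd1b* match the lysyl oxidase pattern but belong to another protein family, and both stayed members by the rule. Periostin b was not settled between 2 gene IDs and was left out. Where a gene and its duplicate share 1 symbol in the name table, the symbol is printed with the Ensembl gene ID.

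RNA was sequenced from T-cell tumors of zebrafish in which the *lck* promoter, active in the T lineage, drives human *IRF4* and the red fluorescent protein mCherry. The paper gives the genotype of its JQ1-treated and DMSO-treated tumor fish as wild-type for *p53*. Fish that bore tumors were kept in single tanks with 4 µM JQ1, an inhibitor of bromodomain proteins that read acetylated histones, or with its solvent DMSO. Tumor cells were then sorted by mCherry fluorescence. The 4 groups were JQ1 day 1, DMSO day 1, JQ1 day 3 and DMSO day 3, with 3 libraries from 3 animals in each, and all 12 libraries carried the transgenes. The comparison asks how matrix genes in the sorted fraction differed after JQ1.

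Collagens are triple helices. Fibrillar collagens form the cables of connective tissue, whereas collagen IV forms the sheet of the basement membrane together with laminins, which are trimers of an alpha, a beta and a gamma chain. Fibronectin is assembled at the cell surface through integrins, lysyl oxidases cross-link collagen and elastin, metalloproteinases cleave matrix proteins, and TIMPs inhibit them. Connective tissue cells, epithelia and endothelia are the usual sources of collagens and laminins, while lymphocytes mainly bind matrix and macrophages secrete some of its proteases.

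Counts on zebrafish genes were 11298503 to 11794147 per library in JQ1 day 1, 11760990 to 12680970 in DMSO day 1, 11787424 to 12771912 in JQ1 day 3 and 8176139 to 12440426 in DMSO day 3. Levels are counts per 1e+06 zebrafish gene counts (CPM) with TMM scaling, listed in the order of replicates 1 to 3. Before TMM scaling 3 counts stood for 0.235 to 0.367 CPM. The TMM factors of 0.864 to 1.25 shift that floor in the printed levels. No transcript lengths were used, so levels are compared between libraries and not between genes. Fold changes are given as log2 values of JQ1 over DMSO with their standard error (SE), 3 libraries per group. The defining T-cell genes *bcl11ba*, *themis*, *lat* and *lck* were present in each library, and their summed level was 501 to 1804 CPM in JQ1 day 3 against 2755 to 3653 CPM in DMSO day 3. In these bulk libraries fewer cells of a type and less RNA per cell cannot be told apart. Without TMM scaling the summed transgene level was lowest in JQ1 day 3 replicate 2, at 786 CPM, against 3962 to 11527 CPM elsewhere.

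At day 3, 23 matrix genes were higher after JQ1 and none was lower by edgeR's quasi-likelihood test with p-values adjusted over the whole table and a threshold of 0.05. They were 10 genes for chains of collagens I, IV, VI, VII, VIII and XXVIII, 5 laminin chains, *fn1b*, *sparc*, *loxl1*, *loxhd1b* and 4 metalloproteinases. Of the 117 members 70 had enough counts to be tested, so 32.9% of those tested were called higher, beside 15.3% of all 16271 genes tested. Of all genes 9.91% were called lower, while 1 member was lower at an unadjusted p under 0.05 and DESeq2's Wald test also called no member lower. The median log2 fold change was 2.47 over the tested members and 0.05 over all tested genes, and 63 of the 70 lay above 0. With libraries scaled by the ERCC spike-in, RNA added in proportion to cell number, the medians were 2.09 for the members and -0.38 for all genes. That scaling called 19 members higher and 1 lower, beside 1837 genes higher and 3831 lower in the whole table, where TMM gave 2491 and 1613. A gene can pass the filter on low counts through the JQ1 libraries alone, so these counts describe the tested members only. Over all 117 members, filter aside, the mean was higher in JQ1 day 3 than in DMSO day 3 for 100. The share of all genes with a higher mean was not counted. With no filter the median log2 fold change was 2.54 over 114 members and 0.43 over all 23625 genes, by edgeR.

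All 23, which were called on these same libraries, had each JQ1 library above each DMSO library at day 3. The share with this separation among all genes called higher was not counted. Such a separation was found for 39 of the 70 tested members, or 55.7%, and for 24.8% of all tested genes. The number of calls depended on single libraries. Without any 1 of the DMSO day 3 libraries no gene of the whole table was called. In those edgeR fits 38 to 42 of 85 to 86 tested members were higher at an unadjusted p under 0.05. Among all genes 3571 to 3973 of 18035 to 18141 tested were. Without JQ1 day 3 replicate 2 there were 2 members called, *col4a5* and *loxhd1b*, and 2.26% of all genes were called higher. That library had the highest level among the JQ1 day 3 libraries for 15 of the 23 genes, and the share over all genes was not counted. All 23 log2 fold changes stayed positive in each of the 12 other settings tried.

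**Figure D1:**
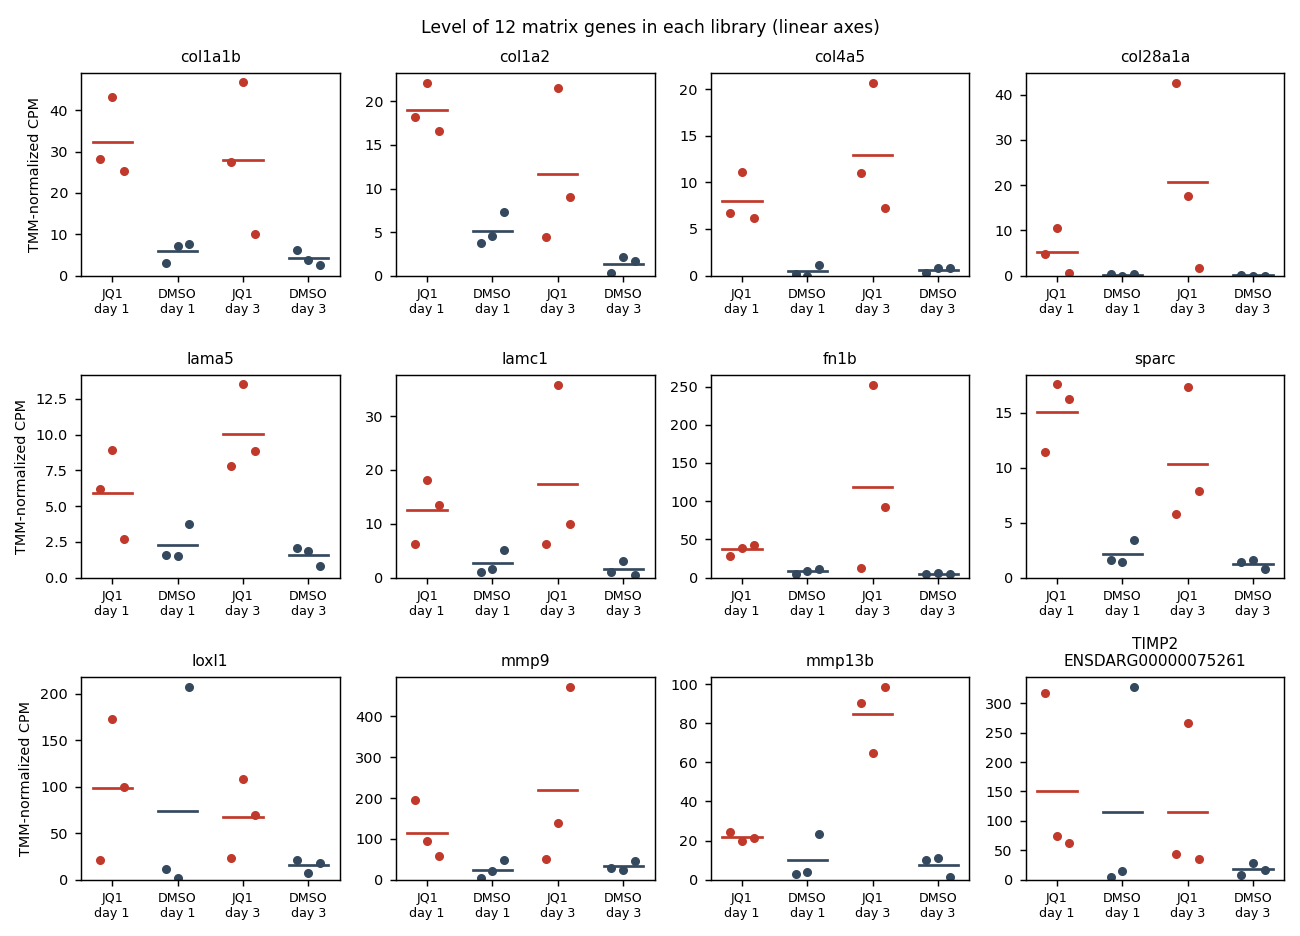
TMM-normalized CPM of 12 matrix genes in each of the 12 libraries, on linear axes that start at 0. Each point is 1 library, bars are group means, red is JQ1 and dark blue is DMSO. The panels were picked from the genes called higher at day 3, with *TIMP2* ENSDARG00000075261, which was not called. At day 3 each JQ1 point lies above each DMSO point in all 12 panels, as for 39 of the 70 tested members. DMSO day 1 replicate 3 stands above its group for *loxl1* and *TIMP2* ENSDARG00000075261.

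Fibrillar collagens were called through *col1a1b* and *col1a2*, genes for chains of collagen I. The other alpha 1 copy, *col1a1a*, named here after its values were seen, was not called by edgeR on the day 3 libraries. It was called by DESeq2's Wald test (log2 fold change 3.30, adjusted p = 0.00460). EdgeR with all 12 libraries in 1 fit also called it (3.23, adjusted p = 0.0284). The gene *col1a1b*, for an alpha 1 chain, had 27.5, 46.8 and 9.95 CPM in the JQ1 libraries against 6.28, 3.81 and 2.60 CPM in the DMSO libraries of day 3. Its log2 fold change was 2.78 ± 0.64 (SE, n = 3 each, edgeR adjusted p = 0.0290). Its partner chain *col1a2* had 4.43, 21.5 and 9.01 CPM after JQ1 against 0.344, 2.18 and 1.64 CPM after DMSO, with a log2 fold change of 3.15 ± 0.87 (adjusted p = 0.0407). Collagen I is the main collagen of skin, tendon and bone, and the JQ1 animal with the lowest level was replicate 3 for *col1a1b* and replicate 1 for *col1a2*. Of the 15 fibrillar members 9 were tested and 2 were called, beside 15.3% of all tested genes called higher. A log2 fold change above 0 was found for 8 of the 9 and for 51.3% of all tested genes. The median of the 9 was 2.71. Summed over the 15 genes, the level was 101, 164 and 41.9 CPM in JQ1 day 3 against 19.3, 32.4 and 11.3 CPM in DMSO day 3.

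Collagen IV, the network of the basement membrane, had 3 of 5 tested chains called among its 6 members, beside 15.3% of all tested genes. The chain gene *col4a5* had 10.99, 20.7 and 7.27 CPM in the JQ1 libraries against 0.258, 0.763 and 0.820 CPM in the DMSO libraries, a log2 fold change of 4.48 ± 0.68 (edgeR adjusted p = 0.0215). For *col4a3* the levels were 1.98, 4.95 and 7.66 CPM after JQ1 against 0.602, 0.109 and 0.137 CPM after DMSO, and for *col4a1* they were 0.992, 3.38 and 1.58 CPM after JQ1 against 0.172, 0.218 and 0.273 CPM after DMSO. In mammals COL4A3 and COL4A5 chains are known from the filter of the kidney, whereas COL4A1 is found in nearly all basement membranes. The log2 fold changes were 4.03 ± 0.89 for *col4a3* (adjusted p = 0.0275) and 3.20 ± 0.75 for *col4a1* (adjusted p = 0.0300). The levels of *col4a1* were a few CPM at most, and each DMSO day 3 library had fewer than 3 counts. The chain *col4a6* was not called, with 8.02, 26.4 and 4.03 CPM in JQ1 day 3 and 1.03, 5.12 and 12.4 CPM in DMSO day 3, where the groups overlapped. Its log2 fold change was 1.13, and 0.01 without JQ1 replicate 2.

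The remaining network, microfibril and anchoring collagens gave 5 calls among 8 tested of 17 members, beside 15.3% of all tested genes called higher. The member with the largest log2 fold change was *col28a1a*, a collagen known in mouse from the sheath of peripheral nerve. It had 42.6, 17.7 and 1.74 CPM in JQ1 day 3 against 0.0861, 0 and 0 CPM in DMSO day 3, that is 862 counts against 1 count in all. The ratio of the pooled levels was 581, with an exact 95% interval of 104 to 22967 that covers counting error alone (edgeR adjusted p = 0.0233, n = 3 each). Within the JQ1 animals the level differed widely, and replicate 3 had the lowest. For *col6a4b* the totals were 221 counts after JQ1 and 3 counts after DMSO, a ratio of 49.6 with an interval of 16.8 to 243. Its levels were 7.33, 6.51 and 1.66 CPM in JQ1 day 3 against 0, 0.218 and 0.137 CPM in DMSO day 3 (adjusted p = 0.0252).

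Collagen VI, which forms beaded microfibrils around cells, was also called through *col6a2*. Its levels were 3.05, 13.1 and 3.40 CPM in JQ1 day 3 against 0.258, 0.872 and 0.683 CPM in DMSO day 3, and the log2 fold change was 3.50 ± 0.86 (adjusted p = 0.0319). Its partner chain *col6a1* was not called, with 2.06, 15.6 and 0.316 CPM after JQ1 against 0.516, 1.74 and 1.91 CPM after DMSO, and JQ1 replicate 3 lay below all DMSO libraries. Its log2 fold change was 2.19, and -0.16 without JQ1 replicate 2. Collagen VII makes the anchoring fibrils that tie the epidermis to the dermis. For *col7a1* the levels were 2.29, 7.45 and 2.05 CPM after JQ1 against 0.0861, 0.436 and 0 CPM after DMSO, a log2 fold change of 4.46 ± 1.11 (adjusted p = 0.0326). For *col8a1b*, a short-chain collagen known from vessel walls and the cornea in mammals, they were 1.45, 4.07 and 2.61 CPM after JQ1 against 0.344, 0 and 0.410 CPM after DMSO (3.45 ± 0.98, adjusted p = 0.0431).

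None of the fibril-associated, transmembrane and multiplexin collagens was called, beside 15.3% of all tested genes called higher. Their unadjusted p was under 0.05 for 2 of the 7 tested fibril-associated members and for 0 of the 3 tested transmembrane or multiplexin members. Among all 16271 genes tested by edgeR at day 3, 7090 had an unadjusted p under 0.05. Animals of the same treatment differed widely for *COL12A1* ENSDARG00000019601, a copy of the collagen XII gene. It had 0.382, 41.01 and 54.9 CPM in JQ1 day 3 and 0, 47.4 and 62.8 CPM in DMSO day 3, so that replicate 1 of both groups was near 0. At day 1 it had 0.785, 74.8 and 1.49 CPM after JQ1 and 147, 66.7 and 0.513 CPM after DMSO. The multiplexin *col18a1a*, whose mammalian product is the source of endostatin, had 223, 11.9 and 67.7 CPM in JQ1 day 3 and 42.2, 63.4 and 3.01 CPM in DMSO day 3. Its relative *col15a1b* had 7.48, 9.58 and 4.90 CPM after JQ1 and 7.75, 8.94 and 17.2 CPM after DMSO. The fibril-associated gene *col16a1* had 4.05, 4.07 and 10.6 CPM after JQ1 and 17.4, 1.09 and 16.1 CPM after DMSO. The groups overlapped at day 3 for all 4 genes, with log2 fold changes of -0.13, 1.53, -0.56 and -0.84 and adjusted p values of 0.356 to 0.961. With 1 library left out that of *COL12A1* ENSDARG00000019601 ranged from -0.80 to 0.43, and that of *col18a1a* was 0.14 without JQ1 replicate 1.

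Laminin chains of all 3 kinds were called, which together are the parts of a trimer. Of those tested, 2 of 3 alpha, 2 of 3 beta and 1 of 3 gamma chains were called, beside 15.3% of all tested genes. The gamma chain *lamc1*, shared by most laminins, had 6.18, 35.8 and 10.03 CPM in JQ1 day 3 against 1.119, 3.16 and 0.546 CPM in DMSO day 3. Its log2 fold change was 3.49 ± 0.92 (SE, n = 3 each, edgeR adjusted p = 0.0374), and JQ1 replicate 2 was the highest library. The alpha chain *lama5*, typical of epithelial and vascular basement membranes, had 7.79, 13.5 and 8.85 CPM after JQ1 against 2.07, 1.85 and 0.820 CPM after DMSO (2.71 ± 0.53, adjusted p = 0.0249). The other called alpha chain, *lama1*, which is known from early embryonic basement membranes, had 4.81, 8.20 and 2.05 CPM after JQ1 against 0.602, 0.218 and 1.09 CPM after DMSO (3.04 ± 0.82, adjusted p = 0.0383). The 3 JQ1 animals were closer together for *lama5* than for *lamc1*.

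Among the laminin beta chains, *LAMB1* ENSDARG00000101209 had 5.34, 9.52 and 12.6 CPM in JQ1 day 3 against 1.46, 1.74 and 0.273 CPM in DMSO day 3, a log2 fold change of 3.00 ± 0.72 (adjusted p = 0.0311). For *lamb2l* the levels were 1.76, 3.44 and 3.32 CPM after JQ1 against 0.258, 0.545 and 0.546 CPM after DMSO (2.71 ± 0.63, adjusted p = 0.0293). The duplicate *LAMB1* ENSDARG00000045524 was not called, although its groups did not overlap, with 4.35, 9.96 and 3.16 CPM after JQ1 against 1.72, 2.62 and 2.19 CPM after DMSO (adjusted p = 0.0980). The groups overlapped for *lama4*, a chain of vessels and muscle, and for *lamc3*. Their log2 fold changes were 1.53 ± 0.93 and 1.56 ± 1.37, and neither was called. Without JQ1 replicate 2 they were 0.21 and -0.55, and that of *LAMB1* ENSDARG00000045524 was 0.83, against 1.49 with it. Reads that fit more than 1 place were dropped in the alignment, so close copies can lose reads and the split between copies is uncertain.

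Fibronectin had the highest called fold change outside the collagens. The gene *fn1b* had 12.3, 252 and 92.4 CPM in JQ1 day 3 against 4.39, 5.99 and 4.23 CPM in DMSO day 3. Its log2 fold change was 4.68 ± 1.02 (SE, n = 3 each, edgeR adjusted p = 0.0272), and 3.46 without JQ1 replicate 2. The DMSO animals were alike, while the JQ1 animals spread widely. The other copy, *fn1a*, was not called, with 37.03, 145 and 419 CPM after JQ1 against 9.64, 82.2 and 3.01 CPM after DMSO (log2 fold change 2.72 ± 1.31, adjusted p = 0.154). Here DMSO replicate 2 lay above JQ1 replicate 1, and the log2 fold change was 4.96 without that DMSO library and 1.54 without JQ1 replicate 3.

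Of the proteins that bind collagen, *sparc*, a secreted calcium-binding glycoprotein, had 5.80, 17.3 and 7.90 CPM in JQ1 day 3 against 1.38, 1.63 and 0.820 CPM in DMSO day 3. The log2 fold change was 3.06 ± 0.61 (adjusted p = 0.0253). The proteoglycan gene *dcn*, for decorin, which binds collagen fibrils, had 6.64, 31.2 and 8.37 CPM after JQ1 against 1.119, 3.49 and 4.64 CPM after DMSO and did not pass (log2 fold change 2.40 ± 0.80, adjusted p = 0.0638), although its groups did not overlap. Without JQ1 replicate 2 it was 1.33. Lumican, *lum*, was low in all libraries, with 1.45, 2.32 and 0 CPM in JQ1 day 3 and 0.430, 0.218 and 3.28 CPM in DMSO day 3. Its log2 fold change was 0.05 ± 1.42, and -0.76 to 1.90 with 1 library left out.

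Among the lysyl oxidases 1 of 5 tested was called, out of 10 members, beside 15.3% of all tested genes called higher. This was *loxl1*, which in mouse is needed for elastic fibers, with 22.9, 108 and 70.00 CPM in JQ1 day 3 against 21.4, 7.63 and 17.5 CPM in DMSO day 3 (log2 fold change 2.17 ± 0.63, adjusted p = 0.0453). The lowest JQ1 library and the highest DMSO library were almost level. Copy *LOXL4* ENSDARG00000025089 had 3.05, 28.3 and 25.6 CPM after JQ1 against 2.84, 3.49 and 0.273 CPM after DMSO and was not called (adjusted p = 0.0640). The other copy, *LOXL4* ENSDARG00000105442, named here after its values were seen, was the member with the lowest log2 fold change, -3.12 ± 1.17 (adjusted p = 0.0849). It had 1.37, 0.877 and 2.13 CPM after JQ1 against 2.24, 35.1 and 2.60 CPM after DMSO, and DMSO replicate 2 stood far above the rest. Outside the family, *loxhd1b*, a relative of a human protein of the inner ear hair cells, had 30.6, 19.04 and 13.5 CPM after JQ1 against 1.55, 0.545 and 1.09 CPM after DMSO (log2 fold change 4.34 ± 0.55, adjusted p = 0.0215), while *loxhd1a* did not pass the filter on low counts.

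Metalloproteinases had 4 calls among 14 tested of 24 members, beside 15.3% of all tested genes called higher. All 14 log2 fold changes were positive with a median of 1.90, and 51.3% of all tested genes had a positive one. The collagenase gene *mmp13b* had 90.5, 64.7 and 98.7 CPM in JQ1 day 3 against 10.2, 11.1 and 1.503 CPM in DMSO day 3. The 3 JQ1 animals were close together, and the log2 fold change was 3.52 ± 0.67 (SE, n = 3 each, edgeR adjusted p = 0.0243). The gelatinase *mmp9* had 49.9, 139.9 and 472 CPM after JQ1 against 28.1, 23.8 and 45.2 CPM after DMSO, with a log2 fold change of 2.82 ± 0.79 (adjusted p = 0.0415) that was 1.57 without JQ1 replicate 3. The membrane-bound enzymes *MMP14* ENSDARG00000002235 and *mmp24* were also called. The first had 3.21, 12.3 and 13.04 CPM in JQ1 day 3 against 1.72, 2.29 and 0.410 CPM in DMSO day 3 (2.73 ± 0.80, adjusted p = 0.0472). For *mmp24* the levels were 2.37, 6.39 and 1.03 CPM after JQ1 against 0.258, 0.218 and 0.410 CPM after DMSO (3.51 ± 0.88, adjusted p = 0.0332). Each DMSO day 3 library had 3 counts or fewer of *mmp24*. Summed over the family, the level was 199, 345 and 668 CPM in JQ1 day 3 against 59.04, 84.3 and 67.5 CPM in DMSO day 3.

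None of the 4 tested TIMPs was called, beside 15.3% of all tested genes called higher. In edgeR 1 of the 4 TIMPs had an unadjusted p under 0.05, as did 7090 of all 16271 genes. *TIMP2* ENSDARG00000075261, whose product in mammals inhibits metalloproteinases and also takes part in the activation of MMP2, had 43.1, 266 and 35.9 CPM in JQ1 day 3 against 8.26, 28.7 and 15.98 CPM in DMSO day 3. Its groups did not overlap, and its log2 fold change was 2.78 ± 0.90 (adjusted p = 0.0590), and 1.20 without JQ1 replicate 2. The copy *TIMP2* ENSDARG00000061226 had 8.40, 16.8 and 7.66 CPM after JQ1 and 9.04, 7.41 and 7.51 CPM after DMSO, with overlapping groups and a log2 fold change of 0.52 ± 0.42. A difference in response between the enzymes and their inhibitors was not tested.

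**Figure D2:**
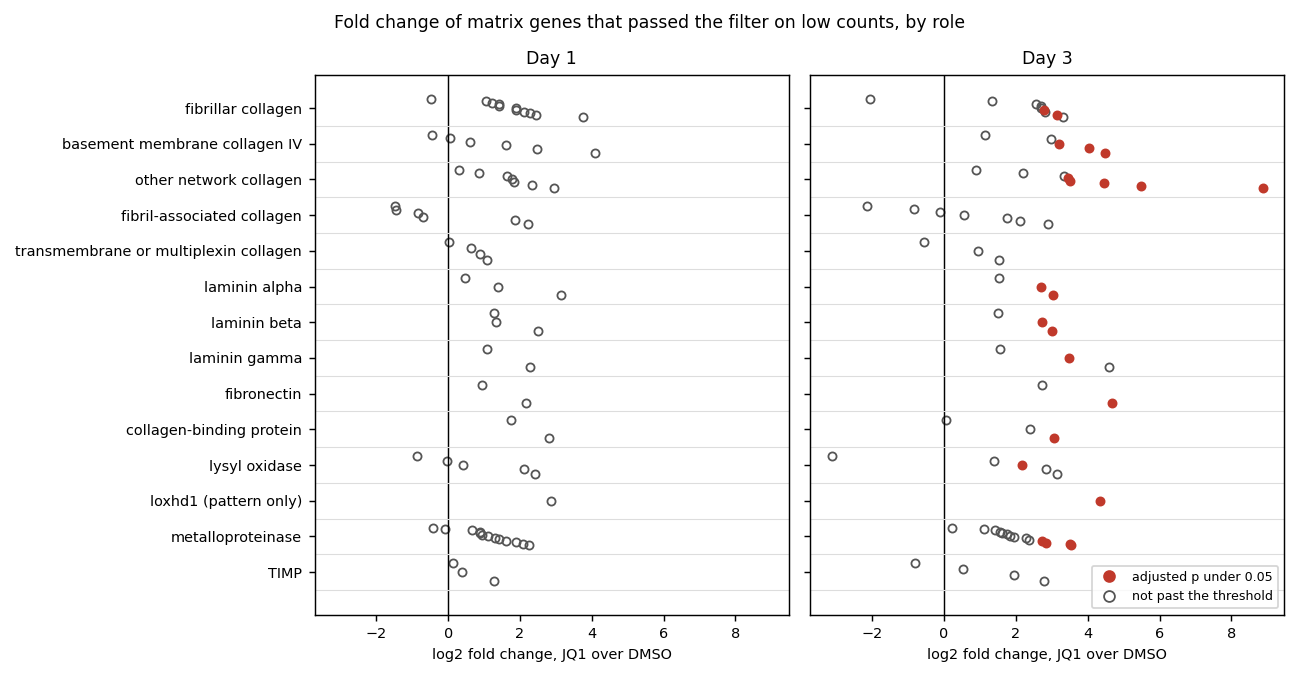
Log2 fold change of JQ1 over DMSO for each matrix gene that passed the filter on low counts, at day 1 (68 genes) and day 3 (70 genes), in rows by role. Filled red points have an edgeR adjusted p under 0.05 and open points do not, so the 23 calls are all at day 3 and all to the right of 0.

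Genes that act with the matrix genes were taken from 4 lists, chosen like the members with earlier results of these data known. Like the members, they can pass the filter on low counts through the JQ1 libraries alone. Of the matrix receptors 8 of 21 tested were higher at day 3 and none lower, beside 15.3% of all tested genes called higher and 9.91% lower. The 8 called were *cd44a*, *ddr1*, *itga6a*, *itga6l*, *itgav*, *itgb6*, *sdc2* and *sdc4*. The syndecan *sdc4* had 119, 279 and 244 CPM in JQ1 day 3 against 46.8, 36.1 and 13.7 CPM in DMSO day 3 (log2 fold change 2.79 ± 0.53, edgeR adjusted p = 0.0243). The integrin chain *itgav*, part of receptors for fibronectin and vitronectin, had 88.02, 139 and 117 CPM after JQ1 against 38.2, 52.6 and 25.1 CPM after DMSO (1.63 ± 0.32, adjusted p = 0.0254). The integrin chain *itga4*, a receptor chain of leukocytes, was not called, with 16.1, 53.2 and 37.2 CPM after JQ1 and 23.8, 98.95 and 361 CPM after DMSO. The list had a median log2 fold change of 1.99, beside 0.05 for all tested genes.

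Of the 42 basement membrane and matrix partners 15 passed the filter on low counts. Of these 9 were higher and none lower, beside 15.3% of all tested genes called higher. Their median log2 fold change was 3.07. The 9 called were *ccn2a*, *ecm1b*, *emilin2a*, *fbln1*, *nid1a*, *nid2a*, *tgfbi*, *THBS1* ENSDARG00000010785 and *vcanb*. The nidogens *nid1a* and *nid2a* encode the link between laminin and collagen IV. The adhesion protein gene *tgfbi* had 91.5, 178 and 232 CPM in JQ1 day 3 against 8.26, 11.7 and 3.14 CPM in DMSO day 3 (log2 fold change 4.49 ± 0.58, adjusted p = 0.0215). The large proteoglycan gene *vcanb* had 16.03, 179.7 and 91.5 CPM after JQ1 against 5.94, 14.2 and 4.37 CPM after DMSO (3.62 ± 0.90, adjusted p = 0.0330), and JQ1 replicate 1 was the closest to the DMSO libraries. The laminin-like gene *ntn4* did not pass the filter on low counts and was not tested. It had 0, 176 and 0.553 CPM after JQ1 and 0.344, 0.436 and 2.87 CPM after DMSO, and was high in JQ1 replicate 2 alone.

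Of the 34 other matrix proteases and inhibitors 26 were tested, with a median of 2.32. Among them 10 were higher and none lower, beside 15.3% of all tested genes called higher. The 10 called were *adam8a*, *adam8b*, *adamts1*, *ctsba*, *ctsd*, *ctsla*, *plat*, *plaua*, *plg* and *reck*, and *reck* encodes a membrane inhibitor of metalloproteinases. The lysosomal protease *ctsba* had 1248, 4244 and 1109.6 CPM in JQ1 day 3 against 276, 353 and 137 CPM in DMSO day 3 (log2 fold change 3.17 ± 0.67, adjusted p = 0.0266). Its relative in function *ctsd* had 529, 1283 and 248 CPM after JQ1 against 77.2, 153 and 40.6 CPM after DMSO (3.00 ± 0.74, adjusted p = 0.0322), whereas *adam10a*, a sheddase, had 241, 172 and 236 CPM after JQ1 and 185, 214 and 179 CPM after DMSO and was not called.

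Of 18 tested genes for collagen hydroxylation, folding, export and trimming 1 was called higher, beside 15.3% of all tested genes. This was *BMP1* ENSDARG00000028071, a copy of the procollagen C-proteinase gene, and the list had a median log2 fold change of 0.58. *BMP1* ENSDARG00000028071 had 10.001, 24.7 and 12.01 CPM in JQ1 day 3 against 2.15, 3.49 and 2.19 CPM in DMSO day 3 (2.64 ± 0.50, adjusted p = 0.0243). The genes of this list with the highest levels serve secretion in all cells, namely *ppib*, *mia3* and *sec23a*. The chaperone gene *ppib* had 163, 145 and 284 CPM after JQ1 and 190.4, 239.5 and 204 CPM after DMSO, with a log2 fold change of -0.04 ± 0.29. For *mia3* and *sec23a*, which act in export from the endoplasmic reticulum, it was -0.23 ± 0.21 and -0.40 ± 0.20, and none of the 3 was called.

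Markers of several other cell types were also higher in JQ1 day 3, where 15.3% of all tested genes were called higher. The 11 marker genes of fibroblasts and mural cells summed to 14.96 to 59.99 CPM in JQ1 day 3 against 2.67 to 6.28 CPM in DMSO day 3, and 2 of the 3 tested, *foxc1b* and *pdgfrb*, were called higher. The 7 skin epithelium markers summed to 560 to 1494 CPM after JQ1 against 14.5 to 99.04 CPM after DMSO, with 6 of 7 called higher. The 6 matched endothelial markers summed to 33.4 to 153 CPM after JQ1 against 13.7 to 27.6 CPM after DMSO, with 3 of 6 called higher. The 5 matched macrophage markers summed to 545 to 2488 CPM in JQ1 day 3 against 49.04 to 269.7 CPM in DMSO day 3, with 3 of 5 called higher. No gene of these 4 lists was at 0 in all 12 libraries. Of the lists for other tissues, 5 of 5 kidney tubule, 5 of 7 germ cell, 2 of 3 thymus epithelium, 1 of 4 osteoblast and chondrocyte, 1 of 3 glia, 1 of 1 muscle, 0 of 3 gonad and 0 of 2 neutrophil markers tested were called higher. Fewer than 80% of the listed names matched for endothelium, macrophages, muscle and neutrophils, so those lists are partial. A marker can pass the filter on low counts through the JQ1 libraries alone, so the counts of calls describe the tested markers only. Of the 4 T-cell genes, all tested, 1 was called lower and 0 higher, beside 9.91% of all tested genes called lower. This was *themis*, with 249, 68.1 and 120.1 CPM in JQ1 day 3 against 515, 351 and 754 CPM in DMSO day 3. The part of any of these cell types in the matrix gene levels was not tested.

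**Figure D3:**
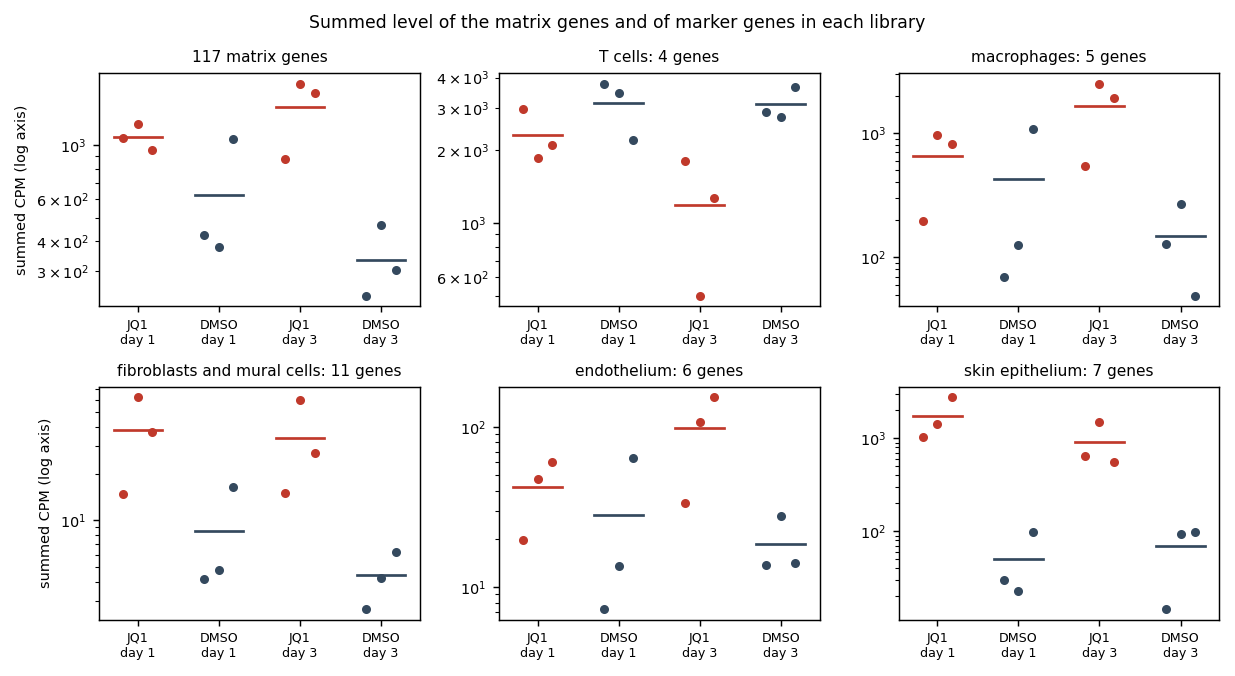
Summed level (CPM, log axes) of the 117 matrix genes and of marker genes of 5 cell types in each library, with a point per library and a bar at the group mean. The matrix genes summed to 875 to 1803 CPM in JQ1 day 3 against 237 to 465 CPM in DMSO day 3. DMSO day 1 replicate 3 is the highest library of its group in each panel except that of T cells.

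At day 1 no matrix gene passed the test, although 58 of 68 tested members lay above 0 with TMM scaling and 27 with ERCC scaling. Of 68 tested members 0 were called higher and 0 lower by edgeR, with 22 higher and 0 lower at an unadjusted p under 0.05. Among all 15813 genes tested by edgeR 0.0443% were called higher and 0% lower, and 1950 were higher at that unadjusted p. DESeq2's Wald test called 17 of 114 members higher, beside 6.33% of all 23277 genes. The median log2 fold change of the members was 1.32, beside 0.004 for all genes. When libraries were scaled by the ERCC spike-in it was -0.29, beside -1.51 for all genes. That scaling called 1 of 68 members higher and 4 lower, beside 248 of all 15813 genes higher and 5945 lower. Each JQ1 library lay above each DMSO library for 26 of the 68, or 38.2%, and for 16.3% of all genes. Of the 23 genes called at day 3 there were 22 tested at day 1. All 22 had a positive log2 fold change with TMM scaling, and 11 had an unadjusted p under 0.05. Of all genes tested at day 1, 50.2% had a positive log2 fold change. The share among all genes called higher at day 3 was not counted. With ERCC scaling 14 of the 22 were positive and 8 negative. The fibroblast and mural markers summed to 14.7 to 62.5 CPM in JQ1 day 1 against 4.17 to 16.5 CPM in DMSO day 1, and the skin epithelium markers to 1045 to 2771 CPM in JQ1 day 1 against 22.5 to 97.8 CPM in DMSO day 1. None of those markers was called at day 1. The macrophage markers summed to 196 to 960 CPM in JQ1 day 1 and 69.8 to 1086 CPM in DMSO day 1, where the groups overlapped. The germ cell markers summed to 263 to 503 CPM in JQ1 day 1 against 27.3 to 38.8 CPM in DMSO day 1, and 1 of 7 tested was called higher. This was *piwil2*, with 16.001, 28.3 and 31.02 CPM after JQ1 against 0, 0.0959 and 0.0733 CPM after DMSO (edgeR adjusted p = 0.0237). The part of these cell types in the levels was not tested.

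DMSO day 1 replicate 3 stood apart from its group. Its 117 matrix genes summed to 1059 CPM, against 422 and 378 CPM in DMSO day 1 replicates 1 and 2. Its macrophage markers summed to 1086 CPM, against 69.8 and 125 CPM. Its marker sums were also the highest of the group for endothelium, fibroblasts and mural cells, and skin epithelium, though not for germ cells, gonad or neutrophils. It held the highest DMSO day 1 level for 21 of the 23 genes called at day 3, and the share over all genes was not counted. In the *loxl1* gene it had 207 CPM, above all JQ1 day 1 libraries, which had 21.6, 173 and 99.9 CPM. Without that library 12 members were called higher at day 1, namely *col1a1a*, *col1a1b*, *col1a2*, *col4a5*, *col5a3b*, *col6a4b*, *fn1b*, *lamc1*, *loxhd1b*, *mmp13b*, *sparc* and *TIMP2* ENSDARG00000075261, and 7.12% of all genes were. Its part in the day 1 result beyond this was not tested.

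At day 1 the levels of *col1a1b*, *col1a2*, *sparc* and *fn1b* were higher in each JQ1 library than in each DMSO library, though none was called. The collagen gene *col1a1b* had 28.3, 43.3 and 25.4 CPM in JQ1 day 1 against 3.12, 7.29 and 7.69 CPM in DMSO day 1, a log2 fold change of 2.44 ± 0.45 (edgeR adjusted p = 0.0610). For *col1a2* the levels were 18.2, 22.1 and 16.6 CPM after JQ1 against 3.73, 4.51 and 7.25 CPM after DMSO (1.89 ± 0.39, adjusted p = 0.0661). The matricellular gene *sparc* had 11.4, 17.5 and 16.2 CPM after JQ1 against 1.56, 1.44 and 3.44 CPM after DMSO (2.81 ± 0.51, adjusted p = 0.0610). Fibronectin *fn1b* had 28.5, 39.1 and 42.9 CPM after JQ1 against 5.03, 8.92 and 10.9 CPM after DMSO (2.17 ± 0.38, adjusted p = 0.0610). The lowest adjusted p of a member at day 1 was that of *col5a3b*, a collagen V chain named here after its values were seen. It had 10.8, 14.9 and 18.6 CPM after JQ1 against 1.65, 0.863 and 0.806 CPM after DMSO (3.75 ± 0.51, adjusted p = 0.0517).

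The basement membrane chain *col4a5* had 6.68, 11.1 and 6.22 CPM in JQ1 day 1 against 0.174, 0 and 1.17 CPM in DMSO day 1 (log2 fold change 4.08 ± 1.13, adjusted p = 0.102), whereas *col4a1* had 0.883, 1.39 and 3.07 CPM after JQ1 against 2.26, 1.15 and 1.83 CPM after DMSO and 0.05 ± 0.71. The laminin chain *lamc1* had 6.28, 18.1 and 13.6 CPM after JQ1 against 1.13, 1.63 and 5.13 CPM after DMSO (2.27 ± 0.72, adjusted p = 0.131). Overlap was present for *col4a1* and absent for *col4a5* and *lamc1*. Of the proteases, *mmp9* had 194, 94.6 and 56.9 CPM in JQ1 day 1 against 3.73, 20.4 and 49.2 CPM in DMSO day 1 (2.24 ± 0.86, adjusted p = 0.182). Collagenase *mmp13b* had 24.4, 19.7 and 21.5 CPM after JQ1 against 3.12, 4.03 and 23.3 CPM after DMSO (1.11 ± 0.75, adjusted p = 0.419), and DMSO day 1 replicate 3 was within the range of the JQ1 libraries. No gene of the 4 lists of matrix partners, receptors, proteases and processing enzymes was called at day 1.

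Whether the response changed between the days was tested by an interaction term over all 12 libraries. By edgeR none of 87 tested members was called in either direction, as were 0% of all 18116 genes tested. DESeq2's Wald test called 0 of 115 members, beside 15 of all 24069 genes higher and 21 lower. In edgeR 3 members had an unadjusted p under 0.05, each with the larger response at day 3. Of all 18116 genes 655 had a positive change in log2 fold change at that unadjusted p. For these members the change in log2 fold change was 3.10 ± 1.04 for *col4a1* (unadjusted p = 0.0120), 2.46 ± 1.04 for *fn1b* (unadjusted p = 0.0356) and 2.37 ± 1.05 for *mmp13b* (unadjusted p = 0.0449), with an adjusted p of 0.711 for each. The median change was 0.68 over the members and 0.04 over all genes. With ERCC scaling it was 2.14 over the members and 1.20 over all genes. At an unadjusted p under 0.05 that scaling had 23 of 87 members and 3735 of all 18116 genes with a positive change. It called 0 members, and 1 gene of the whole table. So the calls at day 3 and their absence at day 1 are not shown to be a difference between the days.

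The DMSO libraries of the 2 days show how matrix genes varied without JQ1. In DMSO day 3 against DMSO day 1 edgeR called no member of 48 tested and 0% of the 14106 genes tested, in either direction. DESeq2's Wald test called 0 of 113 members, beside 33 of all 22775 genes higher and 107 lower. In edgeR 3 members were lower at an unadjusted p under 0.05, the collagen genes *col4a1*, *col4a2* and *col1a2*, of which *col4a2* is named here after its values were seen. Among all 14106 genes 701 had an unadjusted p under 0.05 in either direction. For *col4a1* the levels were 0.172, 0.218 and 0.273 CPM in DMSO day 3 against 2.26, 1.15 and 1.83 CPM in DMSO day 1, a log2 fold change of -3.01 ± 0.66 (adjusted p = 0.635). For *col1a2* they were 0.344, 2.18 and 1.64 CPM in DMSO day 3 against 3.73, 4.51 and 7.25 CPM in DMSO day 1, a log2 fold change of -2.01 ± 0.74 (adjusted p = 0.904). The median log2 fold change was -0.86 over the members and -0.03 over all genes, and -0.29 over the members without DMSO day 1 replicate 3. The DMSO day 3 libraries are the same that the JQ1 day 3 libraries were set against.

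**Figure D4:**
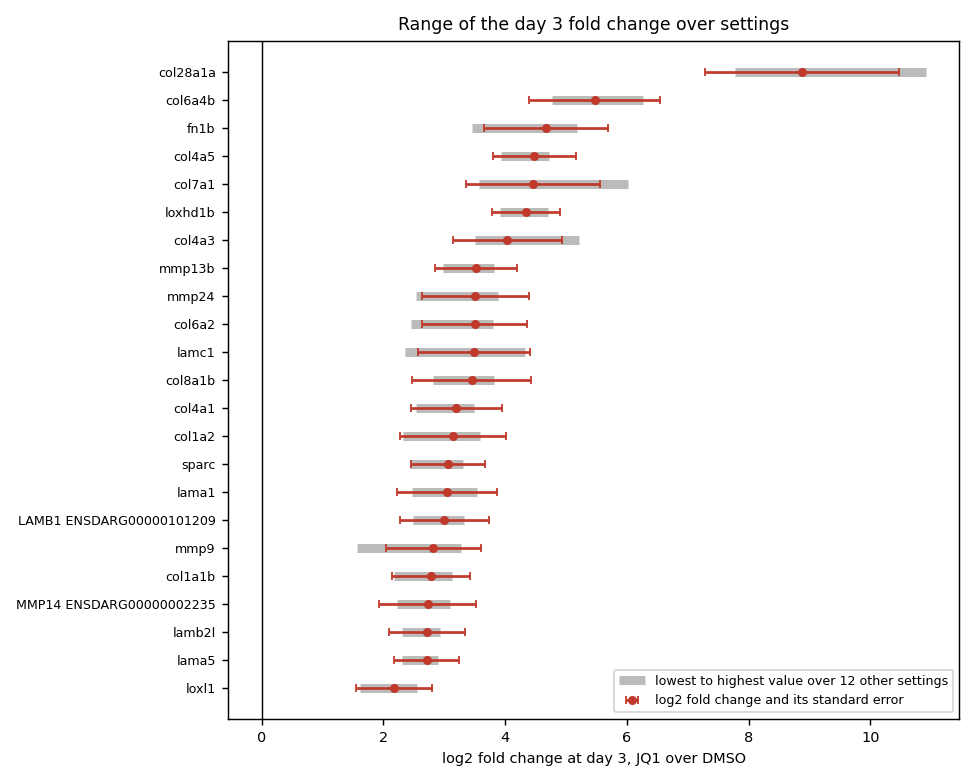
Log2 fold change of JQ1 over DMSO at day 3 for the 23 matrix genes called higher, with the standard error (red) and the lowest to highest value in 12 other settings of normalization, filter, test, block and left-out libraries (gray). All values lie above 0, and the lowest is 1.57 for *mmp9* without JQ1 replicate 3.

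Across the 117 members 47 were not tested at day 3 and 49 were not tested at day 1, while 61 were tested on both days. The genes *col8a1a* and *mmp20a* had no count in any library, which leaves a level of up to 3 counts per library undetected, and 1 more member did not exceed 3 counts in any library. The mean was higher after JQ1 for 98 of the 117 members at day 1, compared with the 100 at day 3, and the share over all genes was not counted. At day 1 with no filter the median log2 fold change in edgeR was 1.47 over 114 members and 0.14 over all 23277 genes.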

How the data were processed

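The 12 libraries held RNA of tumor cells sorted for mCherry. The authors aligned strand-specific 100 bp read pairs to GRCz11 with STAR 2.5.2a, kept those with a single place in the genome, and counted reads per Ensembl gene with featureCounts. The deposited table holds these raw counts without normalization, on zebrafish genes, the transgenes and 92 ERCC spike-in sequences, and 0 of its sample columns lacked a label. The deposited DESeq2 1.12.4 tables hold the authors' own comparisons and were not used.

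Gene names came from a name table by Ensembl ID, ignoring case, and in some cases from the study's supplement or from the only RefSeq copy left. There were 28 members named by symbol only. Members, lists and role classes were chosen with earlier results of these data known.

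Counts were tested in R 4.3.3 with edgeR 4.0.16 (limma 3.58.1): filterByExpr, TMM over zebrafish genes, quasi-likelihood fit on the libraries compared and Benjamini-Hochberg adjustment over all genes tested, with a threshold of 0.05. Standard errors were derived from the F statistic. The method was tested on simulated data with known changes. Alternatives were DESeq2 size factors, ERCC scaling, no filter, the Wald test of DESeq2 1.42.0, the replicate block, all 12 libraries in 1 fit and each library left out. Genes named were *fn1a*, *fn1b*, *sparc*, *dcn*, *lum*, up to 15 called members with the highest level and 10 with the largest fold change, the 2 with the highest level in each role class, and 3 of each list. Levels and fold changes carry counting error and, more so, the spread between animals. Transcript sequences and coordinates of the build were not used here.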

Additional observations from a re-analysis of the deposited data

How the results depend on the processing

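At day 3 the number of members called higher was 23. It was 25 with DESeq2 size factors and 19 with ERCC scaling, and those kept all 23 and 19 of the 23. It was 17 of 114 with no filter on low counts, 28 of 87 with all 12 libraries in 1 fit (20 of the 23 kept) and 49 of 114 with DESeq2's Wald test (23 kept). The shares of all tested genes called higher in these settings were 15.7%, 11.3%, 7.43%, 12.2% and 18.4%, in the same order. With 1 library left out it ranged from 0 to 25, with 0 for each DMSO library and 2 for JQ1 replicate 2. The lowest adjusted p of a member without 1 DMSO library was 0.0632 to 0.0702. The number called lower was 1 with ERCC scaling and 1 with all 12 libraries in 1 fit, *LOXL4* ENSDARG00000105442 in both, against 0 otherwise. Over the whole table, ERCC scaling moved the median fold change (log2) from 0.05 to -0.38 at day 3 and from 0.004 to -1.51 at day 1.

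At day 1 the number called higher was 0, against 1 of 68 with ERCC scaling and 4 of 114 with no filter. It was 17 of 114 with the Wald test and 3 of 87 with all 12 libraries in 1 fit. The shares of all genes in these settings were 1.57%, 0.722%, 6.33% and 2.59%, in the same order. With 1 library left out it was 0 to 12 members, the 12 being without DMSO day 1 replicate 3, where 7.12% of all genes were called higher. With ERCC scaling 4 of 68 members were called lower at day 1, beside 5945 of all 15813 genes. The 4 were *col18a1a*, *col16a1*, *COL12A1* ENSDARG00000019601 and *LOXL4* ENSDARG00000105442. Of the 36 named members tested at day 1, 17 had a positive log2 fold change with TMM scaling and a negative one with ERCC scaling. Of those only *col18a1a* was called, at -1.80 with ERCC scaling (edgeR adjusted p = 0.0340). The cause of these shifts was not tested. Counting each named member once under each other setting, 138 of 456 such values lost the call at day 3, 6 of 456 gained it at day 3 and 31 of 432 gained it at day 1. No member was called in any setting for the change between days or for DMSO day 3 against DMSO day 1. Over all genes, DESeq2's Wald test called 15 higher and 21 lower for the change between days. For DMSO day 3 against DMSO day 1 it called 33 higher and 107 lower. The other settings called at most 1 gene higher and 3 lower.

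With the replicate block 0 members were called at day 3, as were 0 of all genes, and 0 members were called at day 1. At day 3, 34 of 70 members were higher at an unadjusted p under 0.05 in edgeR, beside 3435 of all 16271 genes. The labels do not say whether the replicate numbers pair the samples. In their deviations from the group means, same-numbered libraries correlated at 0.16, -0.11 and -0.08 at day 1 and at -0.05, 0.07 and -0.24 at day 3. Of the 6 JQ1 libraries 2 correlated best with their own number. Correlations over 3 libraries per group cannot settle whether the samples were paired.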

Other observations

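The 2 genes that share the periostin symbol, which encode a collagen-binding protein of connective tissue, were not members. *POSTN* ENSDARG00000104267 had 2.21, 6.32 and 1.34 CPM in JQ1 day 3 against 0, 1.96 and 0.137 CPM in DMSO day 3, with a log2 fold change of 2.297 ± 1.36 (edgeR adjusted p = 0.232), and its groups overlapped. *POSTN* ENSDARG00000043806 had 0.458, 1.31 and 0.632 CPM after JQ1 and 0.0861, 0.763 and 1.09 CPM after DMSO and did not pass the filter on low counts.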
